A study of Ovis aries with 8 samples.

Results

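The proteasome genes described here were found on a sheep expression array by their names and descriptions. The rule took every non-control probe whose gene name starts with PSM, UBE2 or USP, or whose description mentions the proteasome, a ubiquitin-activating or ubiquitin-conjugating enzyme, a ubiquitin-protein ligase, a ubiquitin carboxyl-terminal hydrolase, a cullin or an F-box protein. It found 12 spots, which are 8 probes of 5 genes, out of 15208 spots and 15008 probes in all, of which 1656 probes of 1025 genes could be named. Each of the 12 spots met it through a PSM name and through the word proteasome. The other criteria, UBE2 and USP names and the descriptions of ubiquitin enzymes, cullins and F-box proteins, matched 0 spots, so the set holds proteasome subunits and a proteasome activator and no ubiquitin enzyme. PSMA6, PSMB7, PSMD4, PSMB8 and PSME2 are its members, and all 8 probes were well above background on all 8 arrays.

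Total RNA came from the lungs of 8 sheep fetuses (Ovis aries) at about 130 days of a 147-day gestation. The aldosterone group held 4 fetuses infused with 0.2 mg of aldosterone, a mineralocorticoid hormone, over 48 hours. The control group held 4 fetuses, each the twin of a treated one, which received vehicle. All had undergone surgery 5 days before the infusions began, and the labels name 1 dose and 1 duration, and fetal lung as the tissue. The comparison asks whether raised aldosterone alters gene expression in the late-gestation lung.

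The proteasome is the protease of the cytosol and nucleus that degrades proteins tagged with ubiquitin. Its barrel-shaped core is built of alpha and beta subunits, of which certain beta subunits cut the substrate, and a regulatory cap recognises ubiquitin, unfolds the substrate and feeds it in. In cells exposed to interferon-gamma, and in immune cells, alternative beta subunits such as PSMB8 replace the constitutive ones and form the immunoproteasome, and a ring of PSME1 and PSME2 can bind the core in place of the cap. These forms are known for making peptides that class I molecules present to T cells.

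The probes are printed here because they show how many separate measurements the 5 genes have. Each is 60 bases long and was read from the scanner files, written 5′ to 3′, and capitals mark the bases that the other probe of the same gene lacks.
PSMA6 (A_70_P059396): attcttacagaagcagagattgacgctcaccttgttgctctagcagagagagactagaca
PSMB7 (A_70_P003511): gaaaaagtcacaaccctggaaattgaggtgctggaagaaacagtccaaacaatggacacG
PSMB7 (A_70_P003512): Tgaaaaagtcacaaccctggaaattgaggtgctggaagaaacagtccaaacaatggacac
PSMD4 (A_70_P051396): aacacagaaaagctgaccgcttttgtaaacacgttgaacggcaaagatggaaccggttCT
PSMD4 (A_70_P051397): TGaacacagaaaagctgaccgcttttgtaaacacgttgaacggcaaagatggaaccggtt
PSMB8 (A_70_P071596): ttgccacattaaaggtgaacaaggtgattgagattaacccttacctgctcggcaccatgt
PSME2 (A_70_P003516): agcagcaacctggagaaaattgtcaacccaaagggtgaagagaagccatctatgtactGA
PSME2 (A_70_P003517): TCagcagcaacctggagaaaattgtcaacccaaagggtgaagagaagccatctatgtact
The probes of PSMB7 overlap by 59 bases and are shifted by 1, while those of PSMD4 and of PSME2 overlap by 58 bases and are shifted by 2. The 8 probes therefore read 5 target sites, and the 2 probes of a gene are repeats of 1 measurement. Over the 8 lungs they ran together at r = 0.99 for PSMB7, 0.97 for PSMD4 and 0.95 for PSME2, and their aldosterone minus control differences lay within 0.03 log2 units of each other. The GC content was 45.0% for 7 of the probes and 43.3% for A_70_P003512.

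A pair of further probes outside the rule carry no gene name but list a transcript cluster or record of a member. The second gives a separate look at PSME2, while the first reads the site of the PSMB7 probes. Capitals in the first mark the bases outside its longest run shared with a member probe. The second carries no marking, since it has no long run in common with one.
Linked to PSMB7 (A_70_P036141): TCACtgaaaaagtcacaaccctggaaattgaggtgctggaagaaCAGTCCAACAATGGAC
Linked to PSME2 (A_70_P046726): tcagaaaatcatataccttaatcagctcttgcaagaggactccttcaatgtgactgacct
The probe linked to PSMB7 shares a run of 40 bases with the member probes. After that run it follows their sequence with single A bases missing, so it reads the same site. The probe linked to PSME2 shares no run longer than 7 bases with the member probes, so it reads another site of that transcript cluster. A search of both strands found no further probe on the array that shares 20 bases in a row with a member probe.

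None of the 5 proteasome genes passed limma's test between aldosterone and control lungs. PSMB8, the immunoproteasome subunit, had the largest of the 8 differences, at 0.24 ± 0.17 (log2, limma's SE, n = 4 per group), or 1.18-fold. The core subunits PSMA6 and PSMB7 had slightly lower means after aldosterone, the cap subunit PSMD4 a slightly higher one, and the activator subunit PSME2 a slightly lower one, each by less than its standard error. With array weights, which count arrays of larger residuals less, PSMB7, PSMD4 and PSMA6 differed by more than their standard errors in the same directions, and none passed. Levels are log2 spot intensities less the array's 75th percentile, so they can be compared between lungs for 1 probe but not between probes. In whole lung, fewer cells of a type and less RNA per cell cannot be told apart.

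**Figure D1:**
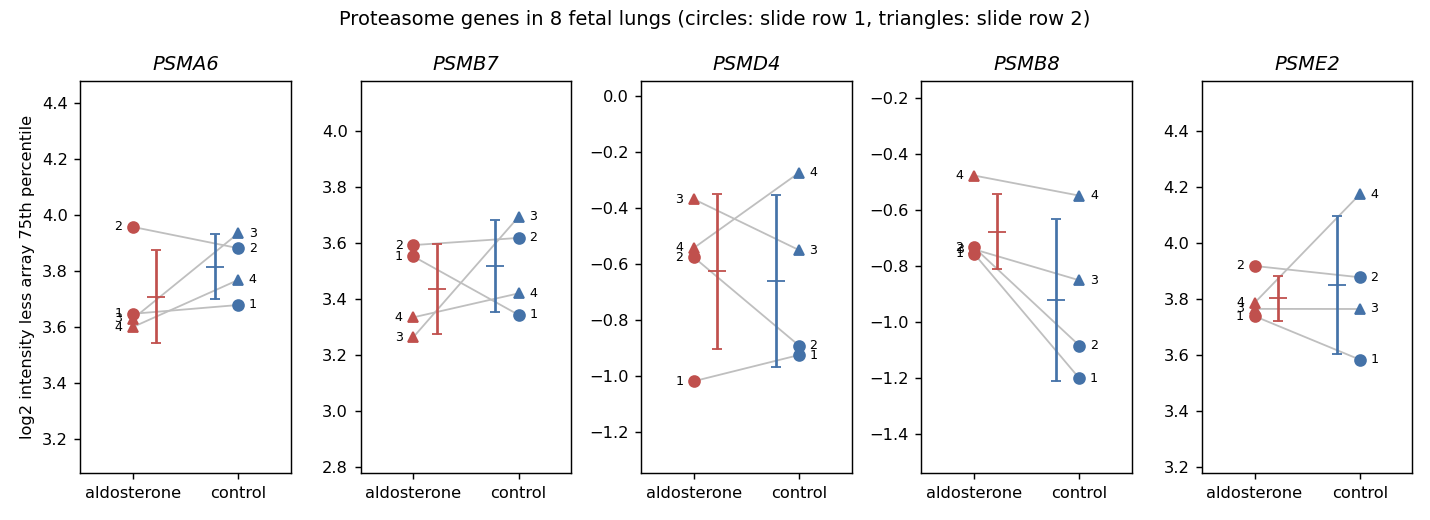
Level of the brightest probe of each of the 5 proteasome genes in every lung (log2 intensity less the array's 75th percentile, each panel spanning the same height), with aldosterone lungs in red on the left and control lungs in blue on the right. Numbers are replicates, grey lines join same-numbered lungs, bars are mean ± SD of 4 lungs, circles are arrays of slide row 1 and triangles those of row 2. The groups overlap in every panel, and all 4 lines of PSMB8 are higher on the aldosterone side.

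Limma gave 0 of the 8 probes an adjusted p under 0.05 (Benjamini-Hochberg over 12168 probes), where it called 0% of all probes tested. At an unadjusted p under 0.05 it gave 0 of the 8, against 228 of the 12168, or 1.87% (1.27% higher and 0.6% lower after aldosterone). The 4 aldosterone and 4 control values overlapped for all 8 probes, and over the array they did not overlap for 1.31% of probes. Of the 8, 3 had higher means after aldosterone and 5 lower ones, while 51.5% of all probes tested had higher means. The median log2 difference was -0.05 over the member probes and 0.01 over all probes tested. Since the 8 probes read 5 sites, the count was also taken by gene. With the brightest probe of each, 2 genes had higher and 3 lower means, with a median of -0.05. Within the main fit, the intervals bound what these arrays could have missed, taken 1 probe at a time. A change above 1.55-fold or below 0.74-fold lies outside the 95% limma interval of each of the 8 probes. The intervals come from the fit with the group alone and are not adjusted for the number of probes, so they give no joint 95% bound. They do not cover the alternative fits. Without the control lung of replicate 4, the log2 difference of PSMB8 was 0.37. With array weights, that of A_70_P051397 of PSMD4 was 0.28 and that of A_70_P003512 of PSMB7 -0.23.

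**Figure D2:**
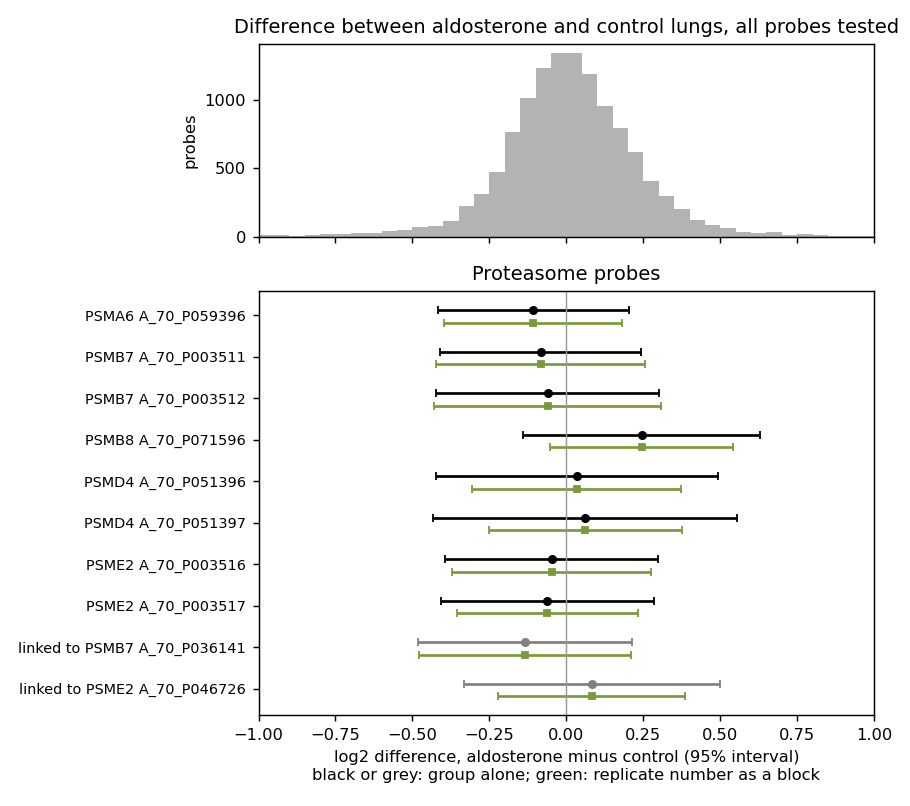
Upper panel: number of probes by log2 difference, aldosterone minus control, over the 12168 probes tested, with the axis limited to -1 to 1. Lower panel: the 8 member probes (black) and the 2 linked probes (grey) with 95% limma intervals, and in green the intervals with the replicate number as a block. Each interval crosses 0, and PSMB8 lies furthest from it.

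Of the subunits of the core, PSMA6 forms part of the alpha rings that gate the entry of substrates. It read 3.65, 3.96, 3.63 and 3.60 in the aldosterone lungs of replicates 1 to 4, against 3.68, 3.88, 3.94 and 3.77 in the control lungs of replicates 1 to 4. Replicate 2 was high among the aldosterone lungs and replicate 3 among the controls, and the ranges overlapped. The means were 3.71 ± 0.17 in aldosterone lungs and 3.82 ± 0.12 in control lungs (SD, n = 4 each), a log2 difference of -0.11 ± 0.14 with a 95% interval of -0.42 to 0.20 and an unadjusted limma p of 0.454. The aldosterone lung was the higher one in 1 of the 4 same-numbered pairs.

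PSMB7 is the beta subunit that cuts after basic residues. Its brighter probe, A_70_P003511, read 3.55, 3.59, 3.26 and 3.34 in the aldosterone lungs, against 3.34, 3.62, 3.69 and 3.42 in the control lungs. The means were 3.44 ± 0.16 in aldosterone lungs and 3.52 ± 0.16 in control lungs (SD, n = 4 each), a log2 difference of -0.08 ± 0.14 with an unadjusted limma p of 0.579. Aldosterone lungs were above their same-numbered controls by 0.21 in pair 1, and below them by log2 differences of -0.03, -0.43 and -0.09 in pairs 2, 3 and 4. The overlapping probe A_70_P003512 gave -0.06 ± 0.16 and the linked probe A_70_P036141 -0.13 ± 0.15, and A_70_P036141 tracked the PSMB7 probes over the 8 lungs at r = 0.96 and 0.94. The difference was negative on each of the 4 probes of the core subunits, and its size was below the standard error on each. The PSMB7 probes overlap in sequence, so their shared sign counts as 1 measurement beside that of PSMA6.

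PSMD4 is the cap subunit that binds ubiquitin chains. A_70_P051396, spotted 5 times on each array, read -1.02, -0.58, -0.37 and -0.54 in the aldosterone lungs, against -0.93, -0.89, -0.55 and -0.28 in the control lungs. The means were -0.63 ± 0.28 in aldosterone lungs and -0.66 ± 0.31 in control lungs (SD, n = 4 each). The log2 difference was 0.03 ± 0.20, with a 95% interval of -0.42 to 0.49 and an unadjusted limma p of 0.871, and 2 of the 4 pairs were higher in the aldosterone lung. The other probe gave 0.06 ± 0.22.

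The repeated spots of PSMD4 show the spot-to-spot error within an array, which leaves out the error of labelling, hybridisation and slide position. The SD of the 5 spots on an array had a median of 0.07 over the arrays, against an SD between lungs within groups of 0.29 on the same log2 scale. On the array of the aldosterone lung of replicate 4, 1 spot read -1.24 where the other 4 read -0.50, -0.39, -0.33 and -0.25. That spot carried no outlier flag, and it lowers the lung's mean to -0.54, against a median of -0.39. With the median of the spots in place of their mean, an alternative chosen after seeing the data, the log2 difference for PSMD4 was 0.05.

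**Figure D3:**
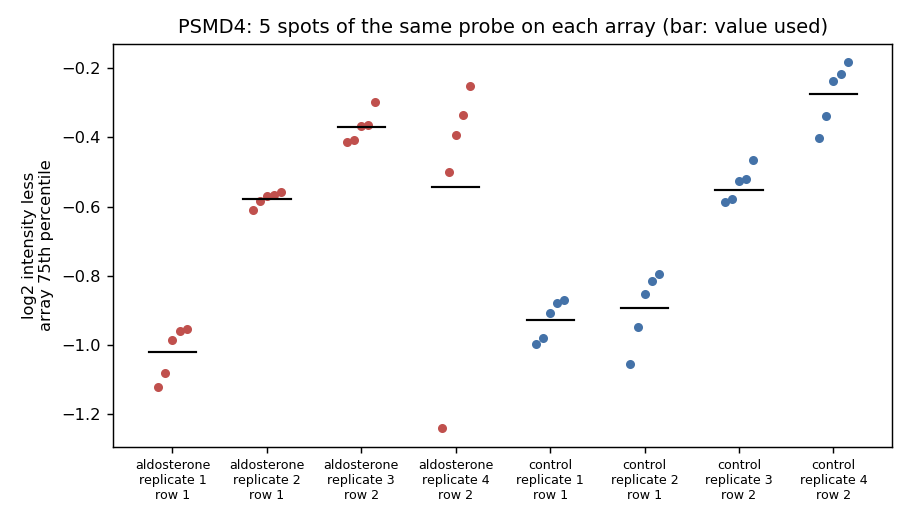
Level of each of the 5 PSMD4 spots (A_70_P051396) on the 8 arrays, in log2 intensity less the array's 75th percentile, with aldosterone lungs in red on the left and control lungs in blue on the right. The bar is the value used for the lung, which leaves out 1 flagged spot in the control lung of replicate 3. The bars of the 4 arrays of row 2 lie above those of row 1, with 1 low spot at -1.24 in the aldosterone lung of replicate 4.

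PSMD4 is given by array position too, since its values fell into the rows of the slide. All 8 arrays lay on 1 slide, with replicates 1 and 2 of both groups in row 1 and replicates 3 and 4 in row 2. PSMD4 averaged -0.44 in row 2 and -0.85 in row 1, a log2 difference of 0.42 ± 0.15 (limma with group and row, SE, unadjusted p = 0.0204), and the values of the rows did not overlap on either probe, as for 12.7% of all probes. The second probe gave 0.51 ± 0.14 (unadjusted p = 0.00541). Neither passed after adjustment (adjusted p in limma 0.17 and 0.133), where 0.131% of all probes tested did so and 22.6% had an unadjusted p under 0.05. Slide row and replicate number go together here, so the arrays of a row and the twin sets on them cannot be told apart. PSMB8 gave 0.29 ± 0.14 for row 2 minus row 1 (adjusted p in limma 0.253), and PSMA6, PSMB7 and PSME2 lay between -0.15 and 0.09. Each row holds 2 lungs of each group, and within the rows the aldosterone minus control difference of PSMD4 was -0.04 in row 2 and 0.11 in row 1.

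PSMB8, also called LMP7, is the immunoproteasome subunit that takes the place of a constitutive peptide-cutting beta subunit. It read -0.76, -0.73, -0.74 and -0.48 in the aldosterone lungs of replicates 1 to 4, against -1.20, -1.08, -0.85 and -0.55 in the control lungs. Aldosterone lungs lay close together apart from the higher replicate 4, and the controls were more spread, with replicate 4 inside the aldosterone range. The means were -0.68 ± 0.13 in aldosterone lungs and -0.92 ± 0.29 in control lungs (SD, n = 4 each), a log2 difference of 0.24 ± 0.17 with a 95% interval of -0.14 to 0.63. The unadjusted limma p was 0.184 and the adjusted p 1.00. The aldosterone lung was the higher one in all 4 same-numbered pairs, by 0.45, 0.35, 0.11 and 0.07, and over the array 13.3% of probes had the same sign in all 4 pairs. With the replicate number as a block the unadjusted limma p was 0.0899 and the interval -0.05 to 0.54. In that fit 0 of the 8 member probes had an unadjusted limma p under 0.05, against 4.43% of all probes tested. Within rows the difference was 0.09 in row 2 and 0.40 in row 1. Over the array 20.9% of the probes tested had a larger difference in size than PSMB8.

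Leaving out the control lung of replicate 4, the highest control for PSMB8, brought the PSMB8 difference to 0.37 ± 0.15. In that fit the unadjusted limma p was 0.0396 and the adjusted p 0.861. Leaving out the control lung of replicate 1 brought the difference to 0.15 ± 0.17, and the leave-one-out values lay between these. Over the leave-one-out fits, 143 to 422 of the 12168 probes had an unadjusted limma p under 0.05.

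PSME2 is the beta subunit of the proteasome activator known as PA28, which opens the core without ubiquitin. Its brighter probe, A_70_P003516, read 3.74, 3.92, 3.77 and 3.79 in the aldosterone lungs, against 3.58, 3.88, 3.76 and 4.17 in the control lungs. The control lung of replicate 4 was the highest of the 8 and that of replicate 1 the lowest, so the aldosterone values lay inside the control range. The means were 3.80 ± 0.08 in aldosterone lungs and 3.85 ± 0.25 in control lungs (SD, n = 4 each), a log2 difference of -0.05 ± 0.15 with a 95% interval of -0.39 to 0.30 and an unadjusted limma p of 0.761. The overlapping probe gave -0.06 ± 0.15. Without the control lung of replicate 4 the difference was 0.06, so its sign rests on that lung.

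The linked probe A_70_P046726, at another site of the same cluster, read 0.79, 0.98, 1.05 and 1.18 in the aldosterone lungs, against 0.59, 0.98, 0.77 and 1.33 in the control lungs. Here too the control lungs of replicates 4 and 1 were the highest and lowest of the 8. Its log2 difference was 0.08 ± 0.18 (unadjusted limma p = 0.663), opposite in sign to the member probes and smaller than its standard error, and it ran with them over the 8 lungs at r = 0.82 and 0.75.

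Interferon response genes are given beside these 2 genes, since PSMB8 and PSME2 are known interferon targets. Of 8 listed, 6 were measured (ISG15, MX1, MX2, IRF1, IRF3 and CXCL10). Their mean log2 level was 0.06, 0.54, -0.55 and -0.99 in the aldosterone lungs of replicates 1 to 4, against -0.43, 0.62, -0.92 and 1.55 in the control lungs. The control lung of replicate 4 was the highest. Its IRF1, a transcription factor that induces immunoproteasome genes, read 1.42, where the other 7 lungs lay between -2.06 and -1.38. The summed linear level of the 6 genes, with the array's 75th percentile as 1, ranged from 3.50 to 14.3 in aldosterone lungs and from 3.66 to 26.6 in control lungs. No member of the list passed limma's adjusted threshold, and 5 had lower and 1 had higher means after aldosterone.

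Over the 8 lungs PSME2 and the interferon list had a Pearson r of 0.80 (exact permutation p = 0.0155, adjusted 0.145 over 12 relations) and a Spearman rho of 0.55 (exact permutation p = 0.171, adjusted 0.41). Without the control lungs of replicates 4 and 2, which were farthest from the median of the list, r was 0.40, so the relation rests on those lungs. PSMB8 and the list gave r = 0.08 (exact permutation p = 0.852) and rho = -0.07 (exact permutation p = 0.882). The permutations here and between the member genes treat the 8 lungs as exchangeable, although same-numbered lungs resembled each other, so these p-values may be too small. The relations with the interferon list were chosen after the values were seen, and a row of the slide holds too few lungs for its own correlation. The part of interferon signalling in the levels of PSMB8 and PSME2 was not tested.

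**Figure D4:**
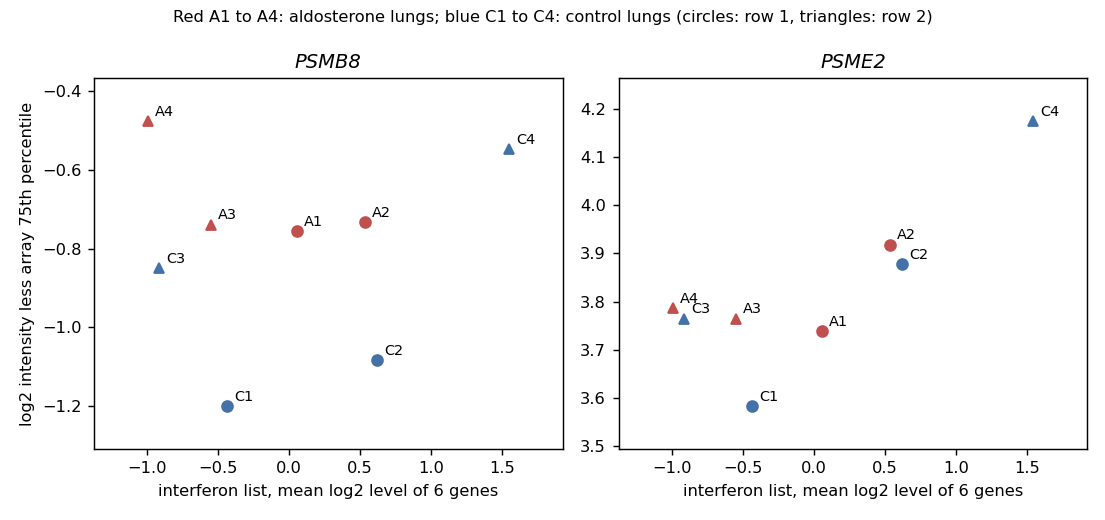
Level of PSMB8 (left panel) and PSME2 (right panel) in each lung against the mean log2 level of 6 interferon response genes, both in log2 intensity less the array's 75th percentile. Points are lungs, aldosterone in red (A1 to A4) and control in blue (C1 to C4), as circles for slide row 1 and triangles for row 2. The control lung of replicate 4 stands apart on the interferon axis, with the highest PSME2 value of the 8.

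Among themselves the 5 genes did not vary as 1 block. PSMA6 and PSMB7, both of the core, had a Pearson r of 0.82 over the 8 lungs (exact permutation p = 0.0241, adjusted 0.145) and a Spearman rho of 0.83 (exact permutation p = 0.0154, adjusted 0.185). Without the 2 lungs farthest from the median of PSMA6, r was 0.69. PSMD4, PSMB8 and PSME2 ran together less closely, at r = 0.66 for PSMB8 with PSMD4, 0.60 for PSMD4 with PSME2 and 0.54 for PSMB8 with PSME2 (adjusted exact permutation p = 0.32, 0.32 and 0.404). Their Spearman rho values were 0.67, 0.60 and 0.62 (adjusted exact permutation p = 0.397 each). Without the 2 farthest lungs their r was 0.35, 0.36 and 0.46. Rows of the slide held 55.5% of the within-group variance of PSMB8, 68.1% of that of PSMD4 and 8.47% of that of PSME2. The median over all probes was 27.4%. The parts of slide row and of spot brightness in these relations were not tested. The other 6 gene pairs lay between -0.31 and 0.35, and 0 of the 12 relations passed adjustment. With group means removed, r was 0.80 for PSMA6 with PSMB7. It was 0.74 for PSMB8 with PSMD4 and with PSME2, and 0.62 for PSMD4 with PSME2. The other gene pairs then lay between -0.30 and 0.32, and the mean pairwise r of the 5 genes was 0.30. That of all probes was 0.003, an average in which positive and negative pairs cancel. How far this mean spreads over other sets of 5 probes was not computed, so the 2 values give no measure of shared variation.

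**Figure D5:**
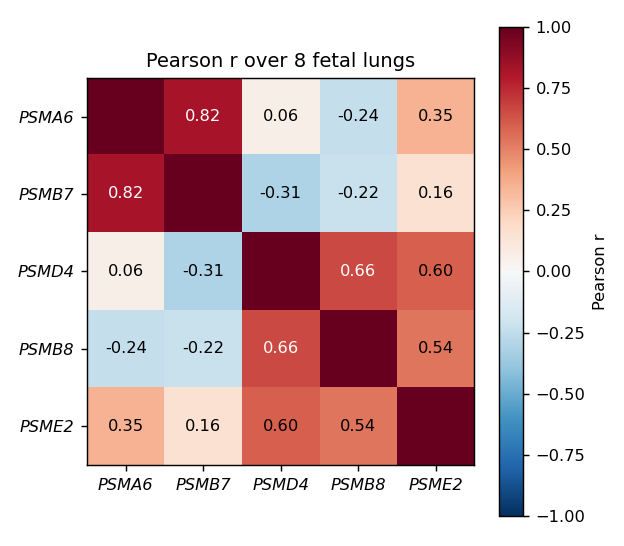
Pearson r over the 8 fetal lungs for each pair of the 5 proteasome genes, from the brightest probe of each. Red is positive and blue negative. PSMA6 and PSMB7 have the highest value, 0.82.

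The spread between lungs was below the median of all probes for each gene but PSMD4, which lay near that median. The SD within groups was 0.14 for PSMA6, 0.16 for the brighter probe of PSMB7, 0.18 for that of PSME2, 0.22 for PSMB8 and 0.29 for PSMD4, against a median of 0.29 over all probes. Of all probes, 9.61% had a smaller SD than PSMA6 and 50.5% a smaller one than PSMD4. For the other probe of PSMD4 the SD was 0.33, and 58.2% of probes had a smaller one. Spot intensities were 12148 to 22804 for the brightest probes of PSMA6, PSMB7 and PSME2, and 662 to 1037 for those of PSMB8 and PSMD4. The comparison with all probes takes no account of brightness, and its part in the spread was not tested. Of the within-group variance, 83.6% lay between the same-numbered pairs for PSMB8, 79.7% for PSMD4 and 34.3% for the brighter probe of PSMB7, where the median over all probes was 71.8%. Unrelated lungs would give 50% on average, so same-numbered lungs were not more alike than others for PSMB7.

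Other genes of the pathway were taken from lists and not by how they moved, and none passed limma's adjusted threshold. Among the precursors of ubiquitin and of ubiquitin-like proteins, a polyubiquitin gene that RefSeq names UBB, and the array describes as ubiquitin C, had a log2 difference of -0.05 ± 0.14, and RPS27A, which encodes ubiquitin fused to a ribosomal protein, 0.02 ± 0.16. For each of them the other probe was opposite in sign, at 0.03 for UBB and -0.04 for RPS27A. ISG15, the interferon-induced ubiquitin-like modifier, gave -0.92 ± 0.94.

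Of 8 listed segregase and shuttle genes 2 were measured. SQSTM1, a receptor that brings ubiquitinated cargo to autophagy, gave 0.09 ± 0.27, and UBQLN1, which shuttles ubiquitinated proteins to the proteasome, -0.19 ± 0.22. Of 24 ligases and scaffolds 2 were measured. SKP1, the adaptor of cullin-based ligases, gave -0.22 ± 0.33, and FBXO32, the F-box protein known from muscle wasting, 0.24 ± 0.26. FBXO32 escaped the rule because its probe is described only as a cDNA clone. Among the transcription factors of proteasome genes, IRF1 gave -0.46 ± 0.69. Of 12 genes of class I antigen processing, 0 were matched to a probe here, so neither PSMB9, PSMB10 nor PSME1 was analysed. UBA1, the main ubiquitin-activating enzyme, also outside the rule, gave -0.07 ± 0.25.

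A probe with the description 26S protease regulatory subunit 6B (A_70_P027451), found after the rule was applied, belongs by that name to the cap. It read -0.01, -0.01, 0.29 and 0.44 in the aldosterone lungs, against -0.10, 0.11, 0.11 and 0.35 in the control lungs. Its log2 difference was 0.06 ± 0.16, with overlapping groups, and like PSMD4 it had a higher mean in row 2 than in row 1.

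Markers of the cells in the tissue were read on the same arrays. Of 9 cell division genes 6 were measured and all 6 had higher means after aldosterone, 5 of them at an unadjusted limma p under 0.05 and 0 after adjustment. Over all probes tested, 51.5% had higher means and 1.27% were higher at an unadjusted limma p under 0.05. Their mean log2 level ranged from -2.32 to -1.35 in aldosterone lungs and from -2.71 to -2.50 in control lungs, which do not overlap, and for single probes the groups did not overlap for 1.31%. The summed linear level of the list ranged from 1.92 to 3.33 in aldosterone lungs and from 1.86 to 2.00 in control lungs. Summed levels ranged from 1.03 to 1.70 in aldosterone lungs and from 0.706 to 1.55 in control lungs for T and natural killer cells (5 of 9 genes measured). They ranged from 0.249 to 0.473 and from 0.256 to 0.349, in the same order, for macrophages and monocytes (3 of 7), with ITGAM above background on 1 aldosterone and 3 control arrays. Lung epithelium (4 of 6, surfactant genes included) ranged from 367 to 590 in aldosterone lungs and from 448 to 619 in control lungs. Endothelium (2 of 4) ranged from 8.04 to 12.7 in aldosterone lungs and from 8.60 to 11.4 in control lungs, and red blood cells (3 of 5) from 24.0 to 118 in aldosterone lungs and from 23.6 to 146 in control lungs. The part of cell makeup in the proteasome values was not tested.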

How the data were processed

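Each of the 8 lungs was hybridised as Cy3-labelled RNA (450 ng of total RNA) to its own array on 1 slide, in 1 scan. Per the file headers, the authors' deposited spot intensity values came from Agilent Feature Extraction 10.1.1.1, with spatial and multiplicative detrending on and the separate background correction off. The authors' deposited log2 table (12762 spots, median 0 in each column) matched each array's log2 scanner signal up to an offset (r = 1.00); the choice of its spots is not stated in the labels.

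From the scanner files, the log2 processed signal was scaled to each array's 75th percentile (10.23 to 10.73) and averaged over the spots of a probe, leaving out 74 values with outlier flags. Probes well above background on at least 4 arrays were kept, 12168 of 15008. Between 76.5% and 85.4% of spots per array were well above background, arrays correlated at 0.966 to 0.989, and the number of arrays limits the precision. Aldosterone was compared with control in limma 3.58.1 (R 4.3.3; lmFit and eBayes, two-sided, Benjamini-Hochberg over all kept probes, threshold 0.05), with the group alone as a term. With group means removed, same-numbered lungs correlated at 0.446, 0.275, 0.28 and 0.538, against -0.449 to 0.204 for other pairs. The numbers were therefore read as pairs beside the main fit, which takes no account of pairing. The other pairs include lungs of the same group, which the removal of group means pushes towards negative r. The contrast is therefore partly set by that step. The twin design comes from the labels, which do not say that the number marks the twin set. Same-numbered arrays also lay side by side on the slide, so likeness of twins and of position cannot be told apart. RefSeq's gene table for ARS-UI_Ramb_v3.0 supplied gene names and no coordinates. The brightest probe stood for a gene where one value per gene was needed. The fit was tested on simulated data, and the outcome is not reported here. Members and lists were chosen with earlier results of these data known. Named were all member genes, and up to 4 genes of each pathway list by smallest p. The alternatives were normexp (offset 50) with quantile normalization, median centring, the authors' values, other filters on dim probes, replicate or slide row as a block, array weights, 1 probe per gene, and each lung left out in turn. A search of promoters for motifs was planned and not run, since no promoter sequences were used here. Values of some genes of the pathway lists are not reported here.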

Additional observations from a re-analysis of the deposited data

Results flagged for a closer look

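Among the 16 sets of 4 lungs tested for a lung far from the rest (8 probes in 2 groups), 2 had one, and chance alone gives about 1 in 20. The aldosterone lung of replicate 2 lay above the others of its group for PSMA6, with a gap of 0.868 of the group's range. The aldosterone lung of replicate 4 lay above the others of its group for PSMB8, with a gap of 0.919 of the range. Both gaps are above Dixon's 95% critical value for 4 samples. Leaving out the outlying lung gave a log2 difference of 0.18 for PSMB8 and -0.19 for PSMA6.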

How the results depend on the processing

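Under all 16 alternatives, limma called 0 probes of the array and 0 of the 8 member probes at an adjusted p under 0.05; the number of probes at an unadjusted p under 0.05 ranged from 143 to 1282, the most with array weights, and was 539 with the replicate number as a block. Of the member probes, 1 (PSMB8) had an unadjusted p under 0.05, and only without the control lung of replicate 4; 0 did under the other 15. PSMB8 stayed higher after aldosterone in all 16 (0.15 to 0.37), and PSMA6 (-0.19 to -0.07) and A_70_P003511 of PSMB7 (-0.21 to -0.02) stayed lower. PSME2 changed sign without the control lung of replicate 4 alone, at 0.060 and, on its other probe, 0.034; its leave-one-out values lay between -0.137 and 0.060, and those of the other probe between -0.132 and 0.034. The sign of PSMD4 is not settled: A_70_P051396 gave -0.0054 with arrays centred on the median and -0.0252 in the authors' values, and -0.0545 to 0.16 over the leave-one-out fits, and A_70_P051397 gave -0.038 to 0.20. Over the leave-one-out fits A_70_P003512 of PSMB7 gave -0.13 to 0.0114. Array weights moved PSMD4 most, to 0.23 ± 0.17 and 0.28 ± 0.19, and gave -0.21 ± 0.13 and -0.23 ± 0.14 for the probes of PSMB7, -0.18 ± 0.12 for PSMA6 and 0.30 ± 0.14 for PSMB8, with 0 member probes at an unadjusted p under 0.05. With the replicate number as a block the member differences are the same by construction and their adjusted p in limma lay between 0.878 and 0.974; it changed no call. The median difference over the member probes ran from -0.13 to 0.05 over the alternatives, and its leave-one-out range was the same. The median of all probes was 0.01 in the values reported and -0.05 in the authors' values.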
